A study of Mus musculus with 50 samples.

Results

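The 10 mouse genes described here encode surface and effector proteins of monocytes: Ly6c2, Ccr2, F13a1, Ctss, Csf1r, Ly86, Ms4a6c, Lgals3, Mpeg1 and Cd36. They were chosen by name, with earlier results of these data known, and all 10 were found among the 33924 gene symbols of both count tables. Ctss, Lgals3, Cd36, Csf1r and Ly86 rose in granulocyte-monocyte progenitors of Flt3 mice while Ly6c2 fell, and each of the 10 genes was far higher in Npm1 Flt3 than in Dnmt3a Flt3 cells.

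Classical monocytes are made in the marrow from granulocyte-monocyte progenitors and leave it for the blood and inflamed tissue. In mice they are recognised by surface Ly6C, which Ly6c2 encodes, and they need the chemokine receptor Ccr2 to exit. Csf1r, the receptor for the growth factors Csf1 and Il34, sustains monocytes and macrophages. Cd36 is a scavenger receptor for lipids and thrombospondin, and Ly86 encodes MD-1, the partner of the surface protein Cd180. Ms4a6c belongs to a family of membrane proteins with several membrane spans. Among the effectors, Ctss is a lysosomal protease that trims the invariant chain of MHC class II, and Lgals3 encodes the sugar-binding protein galectin-3. Mpeg1 encodes a pore-forming protein that acts on engulfed bacteria, and F13a1 encodes the fibrin-crosslinking subunit of a coagulation factor. Dendritic cells also use several of these genes.

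RNA was measured in 50 libraries of 16 groups. GMP (granulocyte-monocyte progenitors) and LSK (the marrow fraction sorted as Lin- Sca-1+ Kit+, with the stem cells in it) came from Flt3 mice at 2, 4, 6 and 8 weeks and from WT mice at 4 weeks, with 3 libraries per group. GMP and LSK also came from Npm1 Flt3 mice (4 libraries each) and Dnmt3a Flt3 mice (3 each), and Lin- progenitors from Npm1 Flt3 mice given tamoxifen (TAM) or Vehicle for 7 days (3 each). Per the labels, mutations were switched on with Cre, Dre or Flp recombinase, mice were killed at the stated time or when they had symptoms, and tamoxifen removed the Flt3 oncogene. The Npm1 Flt3, Dnmt3a Flt3 and Flt3 groups thus share a Flt3 allele, also in the Vehicle group. The labels give neither age and strain nor the event from which the weeks were counted. The sample codes of the GMP and LSK libraries begin differently in WT, Flt3, Npm1 Flt3 and Dnmt3a Flt3 mice. Genotype therefore runs together with these code series and cannot be told apart from them.

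Total counts lay between 306571 and 8249135 in the table of WT and Flt3 libraries, apart from 1 near-empty library (Flt3 GMP at 8 weeks, replicate 2) with 1942 counts, which was left out of all levels below and kept in the fits. In the other table the sorted libraries held 60934043 to 128057407 counts. The TAM libraries held 15053592 to 22654054 counts and the Vehicle libraries 40865360 to 103446979, so depth moved with treatment there. In 2 Dnmt3a Flt3 libraries (LSK replicate 1 and GMP replicate 2) the title and the sample code name different cell types, and they too were left out, which leaves 2 libraries per Dnmt3a Flt3 group. Summed primary granule markers (Mpo, Elane, Prtn3, Ctsg and Ms4a3) followed the sorts, with 14637 to 61601 CPM over the GMP libraries and 1607 to 5340 CPM over the LSK libraries. Flt3 transcript itself averaged 136 ± 18.8 CPM in Flt3 GMP and 23.8 ± 6.14 CPM in WT GMP at 4 weeks (SD, n = 3 each). Levels are counts scaled to the library's total (CPM) and are compared between groups of 1 table only, never between genes. Overlap of groups is described gene by gene and was not counted over all genes.

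Of the 9 genes with a promoter sequence at hand, 3 have the PU.1 motif GAGGAAG close to their start site. Their promoters are shown because PU.1, encoded by Spi1, is a central transcription factor of monocytes. The letters run 5′ to 3′ on the gene's strand from 150 bases before to 20 bases after the start, from RefSeq on GRCm38.p6, and capitals mark motif matches on either strand. In Ctss the capitals join GAGGAAG, read on the opposite strand, with an overlapping match to GGAANNGAA, a motif at which PU.1 pairs with IRF factors.
Ctss (chr3:95526636-95526805, plus strand): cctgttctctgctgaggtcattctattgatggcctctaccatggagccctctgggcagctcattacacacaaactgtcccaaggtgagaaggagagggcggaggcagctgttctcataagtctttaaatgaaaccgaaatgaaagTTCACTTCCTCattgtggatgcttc
F13a1 (chr13:37050225-37050394, minus strand): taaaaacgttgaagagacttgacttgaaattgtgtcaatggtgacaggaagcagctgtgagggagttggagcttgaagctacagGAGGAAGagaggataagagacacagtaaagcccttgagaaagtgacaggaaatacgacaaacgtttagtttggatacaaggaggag
Ly6c2 (chr15:75111918-75112087, minus strand): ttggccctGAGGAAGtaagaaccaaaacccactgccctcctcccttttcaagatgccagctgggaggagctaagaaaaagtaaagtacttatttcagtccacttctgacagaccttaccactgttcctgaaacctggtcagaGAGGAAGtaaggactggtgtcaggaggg
Promoter windows of 300 bases were found for 9 of the 10 genes, with 11 windows in all. Csf1r had no window and was not examined. The 11 windows exceed the 9 genes because F13a1 and Ly6c2 have alternative starts. On both strands, 3 of those 9 genes held GAGGAAG, against 13.6% of all 32851 windows of that length. This sets a count of genes beside a share of windows. GGAANNGAA occurred in Ccr2, Ctss and Ms4a6c and in 8.24% of all windows. TTGCNNAA (10.8% of windows) and TTCNNNGAA (8.30%), forms of the C/EBP and STAT motifs, were in none of the 9. Such matches describe letters and show no binding. On the chromosomes, the starts of F13a1 and Ly86 lie 295101 bases apart on chromosome 13, and 973588 bases separate the end of Ms4a6c from the start of Mpeg1 on chromosome 19. The others lie on separate chromosomes.

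**Figure D1:**
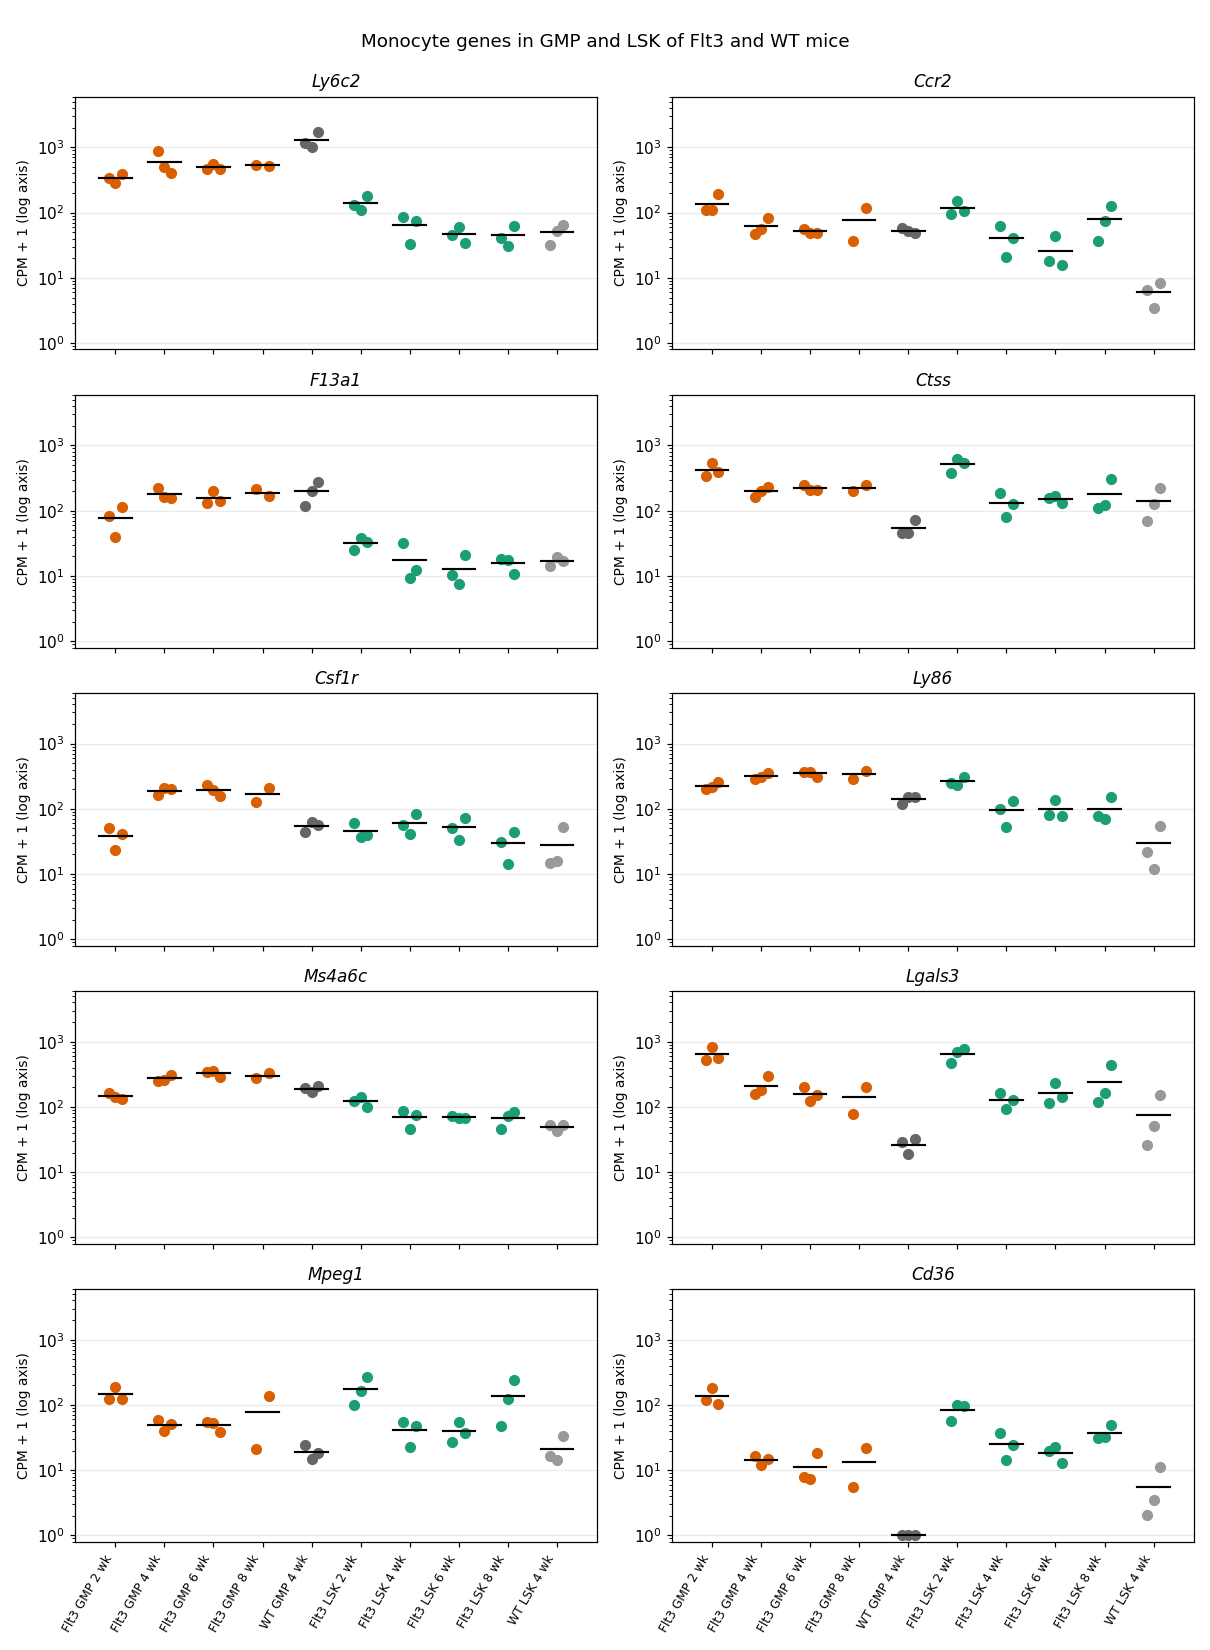
Levels of the monocyte genes in each library of GMP and LSK from Flt3 mice at 2, 4, 6 and 8 weeks and from WT mice at 4 weeks. The vertical axis is CPM + 1 on a log scale, points are libraries and the bar is the group mean. The 3 WT GMP libraries lie above the Flt3 GMP libraries for Ly6c2 and have no Cd36 counts.

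The first question was how these genes differed between Flt3 and WT GMP, which also differ in code series. WT cells were sampled at 4 weeks only. At 2, 6 and 8 weeks genotype and time therefore cannot be told apart, in GMP or in LSK. Of the 10 genes, 6 rose and 1 fell in Flt3 GMP when the mean of the 4 times was set against WT, in edgeR's quasi-likelihood test with Benjamini-Hochberg adjustment over all genes. Over all genes, 13.1% were higher and 13.2% lower, so that 49.8% of the calls were higher (66.9% with median-ratio size factors in place of TMM). The median log2 fold change was 1.03 over the 10 genes and 0.04 over all genes. All libraries of these bulk samples mix cells, so more cells of a type and more RNA per cell cannot be told apart.

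Cd36 transcript was not detected in WT GMP at this depth. It had 15.7, 10.8 and 13.7 CPM in Flt3 GMP at 4 weeks and 118, 184 and 104 CPM at 2 weeks, while the 3 WT GMP libraries held 0 counts. Against a floor of 3 counts over the 4514948 counts of the WT group, that is at least 19.8-fold higher at 4 weeks. At 2 weeks it is at least 166-fold higher than in the same WT libraries of 4 weeks, so that bound also spans a difference in time. Both bounds cover counting error only.

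The genes of the lysosomal protease cathepsin S, Ctss, and of galectin 3, Lgals3, rose too. Ctss had 159, 202 and 228 CPM in Flt3 GMP at 4 weeks and 45.3, 44.8 and 71.8 CPM in WT GMP. The log2 fold change was 1.67 ± 0.22 (SE, adjusted p = 3.95e-07, edgeR) at 4 weeks and 2.10 ± 0.19 (adjusted p = 1.19e-11) over the 4 times. Lgals3 had 159, 179 and 294 CPM in Flt3 GMP at 4 weeks, against 27.6, 17.9 and 30.9 CPM in WT GMP. It rose by 2.89 ± 0.41 on the log2 scale (adjusted p = 0.00039, edgeR). Neither gene's Flt3 libraries overlapped the WT libraries.

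The growth factor receptor gene Csf1r had 159, 207 and 198 CPM in Flt3 GMP at 4 weeks and 43.4, 60.7 and 55.7 CPM in WT GMP. It rose by 1.60 ± 0.21 (adjusted p = 2.53e-07, edgeR). Ly86 had 285, 306 and 347 CPM in Flt3 GMP and 117, 152 and 149 CPM in WT GMP at 4 weeks, a rise of 0.96 ± 0.18 (adjusted p = 0.000122, edgeR). Both genes were above the WT range in each of the 3 Flt3 libraries at 4 weeks. At 2 weeks Csf1r was not above WT, with 22.4 to 49.4 CPM in Flt3 GMP. Its rise over the mean of the 4 times includes these libraries.

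Ly6c2 went the other way. It had 886, 506 and 402 CPM in Flt3 GMP at 4 weeks, against 1179, 1004 and 1714 CPM in WT GMP, without overlap. It fell by 1.33 ± 0.23 on the log2 scale at 4 weeks (adjusted p = 8.9e-05, edgeR) and by 1.57 ± 0.17 over the 4 times (adjusted p = 3.67e-09). With only the 6 libraries compared in the fit, the 4-week change of -1.32 had adjusted p = 0.0752. Of the Ly6c2 transcript, 32.99% of the 50-base stretches also occur in another gene, first of all in its neighbour Ly6c1, so counts of the pair may be mixed. The share was 11.3% for Ms4a6c with Ms4a6b, and 7 of the other genes had a share of 0. Over the last 300 bases of the transcript the share was 27.3% for Ly6c2 and 15.7% for Ms4a6c.

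Mpeg1 had 57.7, 38.5 and 49.4 CPM in Flt3 GMP at 4 weeks and 23.6, 13.9 and 17.4 CPM in WT GMP. It rose over the 4 times by 1.89 ± 0.47 (adjusted p = 0.0106, edgeR), a call lost without WT GMP replicate 2 or 3 (adjusted p = 0.0523 to 0.0697). At 4 weeks alone its change was 1.23 ± 0.58 (adjusted p = 0.193), and it passed without Flt3 GMP 8 weeks replicate 1 or 3 (adjusted p = 0.00151 to 0.00162) or with only the 6 libraries compared (1.24, adjusted p = 0.006). Ccr2, F13a1 and Ms4a6c did not pass the test over the 4 times. F13a1 at -0.58 ± 0.23 (adjusted p = 0.0855, edgeR) passed without 1 of 3 libraries (Flt3 GMP 2 weeks replicate 2 or 3, or WT GMP replicate 1, adjusted p = 0.0104 to 0.041). Ccr2 at 0.44 ± 0.24 (adjusted p = 0.2) passed without Flt3 GMP 8 weeks replicate 1 (adjusted p = 0.0177), and Ms4a6c was at 0.28 ± 0.13 (adjusted p = 0.126) and passed without the 2-week libraries (0.45, adjusted p = 0.0168). At 4 weeks alone 5 of the 10 genes rose and 1 fell, against 7.18% and 7.77% of all genes (48.0% of calls higher, 65.1% with median-ratio size factors). These comparisons share the 3 WT libraries.

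Markers of dendritic cells moved with these changes. The 8 markers (among them Cd209a, Clec9a, Siglech and H2-Ab1) summed to 1279 to 2299 CPM in Flt3 GMP at 4 weeks and to 71.7 to 93.6 CPM in WT GMP, where Cd209a and Ccr9 were at 0. Of the 5 dendritic markers tested, 5 rose. Late neutrophil markers such as S100a8 and Ngp summed to 1.20 to 19.2 CPM in Flt3 GMP and to 312 to 710.2 CPM in WT GMP at 4 weeks. Their part in the result was not tested.

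The same question was asked in LSK. Of the 10, 5 rose over the 4 times (Ccr2, Ly86, Ms4a6c, Mpeg1 and Cd36) and none fell, while 6.89% of all genes were higher and 8.07% lower. At 4 weeks alone only Ccr2 and Cd36 were called, 2 of 10 with none lower, against 4.54% higher and 5.6% lower over all genes. Without the 2-week libraries those 2 genes were the ones still called over the later times, and Ly86 (1.64), Ms4a6c (0.48) and Mpeg1 (1.47) had adjusted p = 0.0535, 0.13 and 0.13.

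The chemokine receptor gene Ccr2 had 60.8, 19.7 and 39.9 CPM in Flt3 LSK at 4 weeks and 5.61, 2.47 and 7.30 CPM in WT LSK. It rose by 2.84 ± 0.61 (adjusted p = 0.00882, edgeR), with the call lost without WT LSK replicate 1 (adjusted p = 0.0596), and by 3.30 ± 0.55 over the 4 times (adjusted p = 0.000765). Cd36 had 36.7, 13.1 and 23.8 CPM in Flt3 LSK at 4 weeks and 1.05, 2.47 and 10.4 CPM in WT LSK. It rose by 2.32 ± 0.55 (adjusted p = 0.00921, edgeR). For both genes each Flt3 library was above each WT library. Without Flt3 LSK 4 weeks replicate 2 the 4-week count was 4, with Ly86 and Ms4a6c added (Ms4a6c adjusted p = 0.0352).

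Ly86 rose over the 4 times by 2.07 ± 0.45 (adjusted p = 0.00823, edgeR; 0.0613 without WT LSK replicate 1) and Ms4a6c by 0.77 ± 0.19 (adjusted p = 0.00458). Mpeg1 was at the threshold with 1.93 ± 0.58 (adjusted p = 0.0499) and lost its call in 11 of the 15 refits that left out 1 library (adjusted p up to 0.2). Ctss and F13a1 were not called, with Ctss at 186, 80.5 and 127 CPM in Flt3 LSK at 4 weeks and 68.4, 127 and 222 CPM in WT LSK. The WT LSK libraries differed among themselves, with replicate 3 the highest of the 3 for 8 of the 10 genes, F13a1 and Ms4a6c being the exceptions. Its summed tissue macrophage markers (C1qa, C1qb, C1qc, Vcam1, Slc40a1, Adgre1, Fcna and Cd5l) were also the highest, at 2139 CPM against 331 and 685 CPM in the other two, with none of the markers at 0. The Flt3 LSK libraries at 4 weeks held 25.3 to 58.8 CPM of these. Without WT LSK replicate 3, Csf1r and Lgals3 were also called over the 4 times (1.71 and 2.87, adjusted p = 0.0027 and 0.018), and Csf1r and Ly86 at 4 weeks (adjusted p = 0.00142 and 0.0116). Dendritic markers summed to 915 to 3396 CPM in Flt3 LSK at 4 weeks and to 186 to 293 CPM in WT LSK, where Cd209a was at 0. The part of either marker list in the result was not tested.

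Time mattered mostly between 2 and 4 weeks. In Flt3 GMP, 2 of the 10 genes (Csf1r and Ms4a6c) were higher and 5 (Ccr2, Ctss, Lgals3, Mpeg1 and Cd36) lower at 4 than at 2 weeks, against 5.45% and 11.1% of all genes. Csf1r had 159, 207 and 198 CPM at 4 weeks and 49.4, 22.4 and 40.5 CPM at 2 weeks, a difference of 1.90 ± 0.22 (adjusted p = 2.47e-09, edgeR). Cd36 had 15.7, 10.8 and 13.7 CPM at 4 weeks, against 118, 184 and 104 CPM at 2 weeks, and fell by 3.68 ± 0.40 (adjusted p = 4.27e-08, edgeR).

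Lgals3, Ctss, Ccr2 and Mpeg1 fell with Cd36. Lgals3 was lower by 1.95 ± 0.34 at 4 weeks (adjusted p = 0.00113, edgeR), with 159, 179 and 294 CPM at 4 weeks and 529.8, 829.7 and 567.9 CPM at 2 weeks. Ctss fell by 1.45 ± 0.20 (adjusted p = 3.75e-07) and Ccr2 by 1.52 ± 0.30 (adjusted p = 0.000627). Mpeg1 fell by 1.91 ± 0.49 (adjusted p = 0.0196), a call lost without Flt3 GMP 4 weeks replicate 2 or 3 or 2 weeks replicate 2 (adjusted p = 0.0518 to 0.0816). Ms4a6c rose by 0.57 ± 0.17 (adjusted p = 0.0142), lost without replicate 3 of either time (adjusted p = 0.0922 and 0.121). Ly6c2 at 0.45 ± 0.23 and F13a1 at 0.74 ± 0.32 were not called, and each passed without a single library (Ly6c2 without 4 weeks replicate 3, adjusted p = 0.0409; F13a1 without 2 weeks replicate 3, adjusted p = 0.0277).

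The 2-week GMP libraries stood apart in their markers. Basophil and mast cell markers (Mcpt8, Prss34, Cpa3, Ms4a2 and Fcer1a) summed to 787 to 954 CPM at 4 weeks and to 56749 to 70242 CPM at 2 weeks, with none at 0. Dendritic markers summed to 1279 to 2299 CPM at 4 weeks and to 11277 to 16635 CPM at 2 weeks. Their part in the time difference was not tested, and the values over the 4 times above include these libraries.

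In Flt3 LSK, 8 of the 10 genes fell between 2 and 4 weeks and none rose, against 8.25% lower and 4.39% higher over all genes; Csf1r and F13a1 were not called. Ms4a6c had 85.5, 44.9 and 74.9 CPM at 4 weeks and 121, 143 and 99.7 CPM at 2 weeks, and fell by 1.10 ± 0.22 (adjusted p = 0.00143, edgeR). Cd36 fell by 2.06 ± 0.45 (adjusted p = 0.00505). These 2 calls held in each refit that left out 1 library. Without 2 weeks replicate 3 they were the 2 calls left, since Ly6c2 (-1.39 ± 0.35, adjusted p = 0.0147; 0.0718 without that library), Ccr2, Ctss, Ly86, Lgals3 and Mpeg1 (-1.73 to -2.63) lost theirs. The last 5 also lost their calls without some of the other 2-week and 4-week libraries, Ctss in 3 refits, Ccr2 in 4 and the other three in 5 each (adjusted p = 0.0508 to 0.118). F13a1 (-1.20 ± 0.42, adjusted p = 0.0591) passed without 4 weeks replicate 1 (adjusted p = 0.00608). Dendritic markers summed to 915 to 3396 CPM at 4 weeks and 7066 to 12911 CPM at 2 weeks. Their part was not tested.

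From 4 weeks on, no difference was detected. Between the mean of 6 and 8 weeks and 4 weeks, 0 of the 10 genes passed in GMP, where 0.0219% of all genes were higher and 0.11% lower, and 0 of the 10 in LSK, where 0% were higher and 0.0101% lower. DESeq2 also called 0 of the 10 in both. Of the 10, 0 reached an unadjusted p under 0.05 in either sort, the lowest being 0.12 in GMP (Lgals3) and 0.0808 in LSK (Ly6c2). The differences ranged from -0.52 (Lgals3) to 0.36 (Mpeg1) in GMP and from -0.71 (Csf1r) to 0.69 (Mpeg1) in LSK, with SEs of 0.15 to 0.58. The highest single library among the later LSK groups was 8 weeks replicate 3, with 309.9 CPM of Ctss, 440.4 CPM of Lgals3 and 245 CPM of Mpeg1. Its dendritic markers summed to 7489 CPM, against 2420 and 2535 CPM in the other 8-week LSK libraries.

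**Figure D2:**
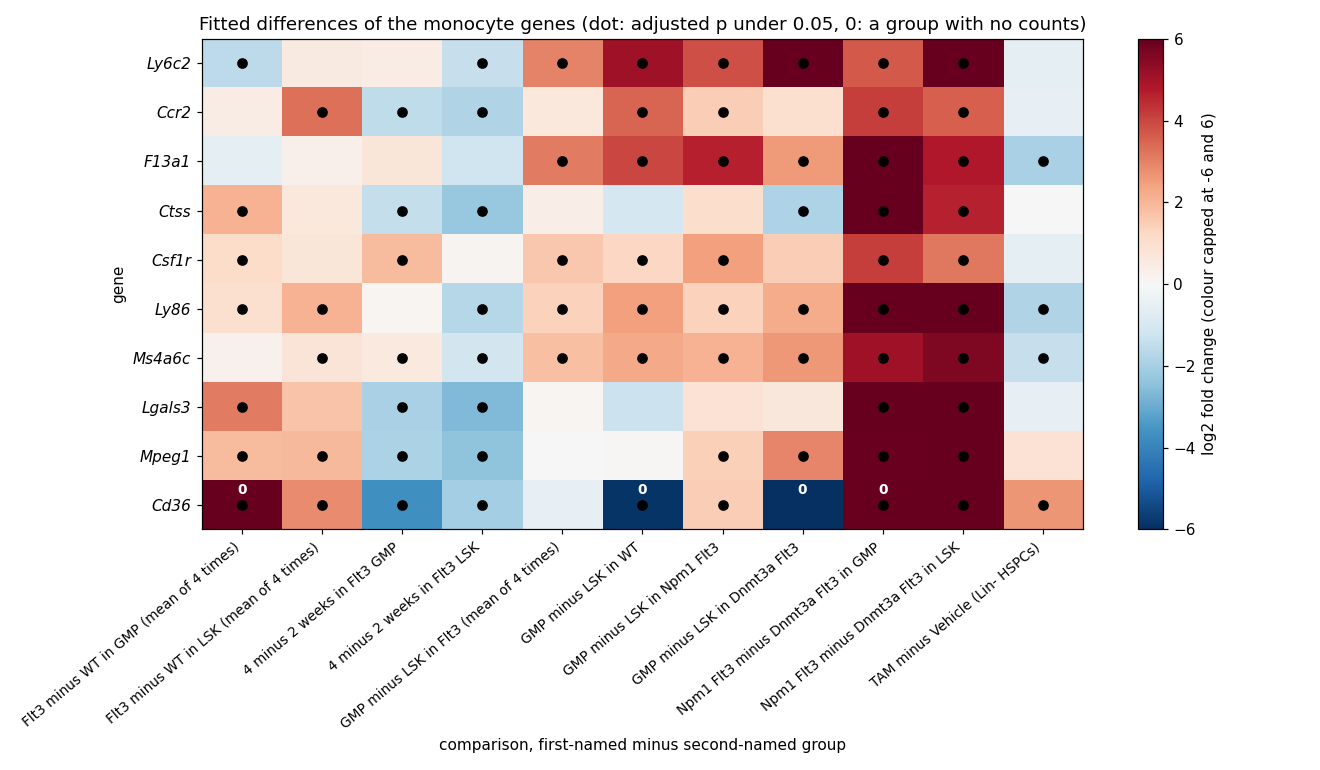
Fitted log2 fold change of each monocyte gene (rows) in 11 comparisons (columns), each as the first-named minus the second-named group. Dots mark an adjusted p under 0.05 and a white 0 marks a comparison with a group that held no counts of Cd36. The 2 columns of Npm1 Flt3 minus Dnmt3a Flt3 are red and dotted for all 10 genes.

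GMP were next compared with LSK within each genotype. In WT mice 6 of the 10 genes were higher in GMP and 1 lower, against 13.5% and 16.1% of all genes (45.6% of calls higher, 24.2% with median-ratio size factors). The higher ones were Ly6c2, F13a1, Ccr2, Ly86, Ms4a6c and Csf1r. Ly6c2 had 1179, 1004 and 1714 CPM in WT GMP and 30.9, 51.9 and 63.0 CPM in WT LSK, a difference of 5.10 ± 0.38 (adjusted p = 1.49e-09, edgeR). F13a1 had 118, 199.6 and 271 CPM in WT GMP, against 13.3, 18.5 and 16.1 CPM in WT LSK (4.00 ± 0.40, adjusted p = 6.36e-08). Both surface and effector genes were thus among the higher ones. These 2 were higher in GMP in each of the 3 pairs, where a pair is the GMP and LSK library of the same animal.

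Ccr2 was higher by 3.48 ± 0.58 (adjusted p = 9.92e-05, edgeR), Ly86 by 2.48 ± 0.39 (adjusted p = 4.99e-05) and Ms4a6c by 2.28 ± 0.19 (adjusted p = 1.96e-13). Csf1r was higher by 1.24 ± 0.42 (adjusted p = 0.028), a call lost in 4 of the refits (without WT GMP replicate 2 or 3, or WT LSK replicate 1 or 2, adjusted p = 0.0656 to 0.15) with DESeq2 (adjusted p = 0.093) and with median-ratio size factors (adjusted p = 0.0682). Cd36 had 0 counts in WT GMP and 1.05, 2.47 and 10.4 CPM in WT LSK, at least 7.69-fold higher in LSK against the same floor. Its call was lost without WT GMP replicate 2 or 3 or WT LSK replicate 3 (adjusted p = 0.0518 to 0.127). Ctss (-1.04 ± 0.43, adjusted p = 0.0746), Lgals3 (-1.31 ± 0.65) and Mpeg1 (0.05 ± 0.70) were not called. With the animal as a replicate block Ctss was called (-0.97, adjusted p = 0.017), as it was without WT LSK replicate 1 or Flt3 LSK 8 weeks replicate 3, and Lgals3 without WT LSK replicate 1 (adjusted p = 0.0405). Tissue macrophage markers summed to 87.1 to 154 CPM in WT GMP and to 331 to 2139 CPM in WT LSK, and their part was not tested.

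In Flt3 mice 5 of the 10 genes were higher in GMP and none lower over the 4 times, against 8.79% and 9.02% of all genes (49.3% of calls higher, 38.2% with median-ratio size factors). Ly6c2 (3.00 ± 0.19), F13a1 (3.11 ± 0.21), Csf1r (1.61 ± 0.21), Ly86 (1.39 ± 0.18) and Ms4a6c (1.79 ± 0.10) passed, with adjusted p from 6.07e-21 to 4.03e-06 in edgeR. Ly6c2 and F13a1 were higher in GMP in 11 of 11 within-animal pairs, Ms4a6c in 10, Csf1r in 9 and Ly86 in 8. Ccr2 was at 0.62 ± 0.24 (adjusted p = 0.0806), with 45.4, 54.2 and 83.0 CPM in Flt3 GMP and 60.8, 19.7 and 39.9 CPM in Flt3 LSK at 4 weeks, where the ranges overlapped. With the animal as a replicate block Ccr2 (0.59, adjusted p = 0.00599) and Cd36 (-0.61, adjusted p = 0.0181) were called too. Without 1 of 4 libraries (Flt3 GMP 8 weeks replicate 1, Flt3 LSK 4 weeks replicate 1, 6 weeks replicate 2 or 8 weeks replicate 3) Ccr2 also passed (adjusted p = 0.0216 to 0.045), and Ctss passed without the last of these (adjusted p = 0.0429).

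The test of the difference itself, the Flt3 effect in GMP minus the Flt3 effect in LSK, called 3 of the 10 genes, 1 higher and 2 lower, against 5.83% and 6.59% of all genes (46.9% of calls higher, 74.2% with median-ratio size factors). It shares the WT and Flt3 libraries with the comparisons above and is no separate evidence. Ccr2 differed by -2.86 ± 0.63 (adjusted p = 0.00509, edgeR), and Ly6c2 by -2.10 ± 0.40 (adjusted p = 0.00142). Ctss differed by 1.45 ± 0.47 (adjusted p = 0.0493) and lost its call in 26 of the 30 refits that left out 1 library. In the 4-week groups alone Ccr2 was the gene called, with Ly6c2 at -1.79 (adjusted p = 0.155) and Ctss at 1.74 (adjusted p = 0.178). With the animal as a replicate block, Ly86 (-1.24, adjusted p = 0.029) and Cd36 (adjusted p = 0.00685) were also called. Cd36, at 0 in WT GMP, has no fitted size that can be read, and without a block it passed in 2 refits (without Flt3 GMP 8 weeks replicate 1 or WT LSK replicate 1). Ms4a6c passed without Flt3 LSK 8 weeks replicate 1 (adjusted p = 0.0466) and Ly86 without WT LSK replicate 3 (adjusted p = 0.00804).

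Other genes of the lineage were read from lists drawn up by gene function, also with earlier results of these data known. Of 30 other classical monocyte genes 19 were tested in Flt3 against WT GMP, where 6 rose and 5 fell, with a median of 0.05 on the log2 scale. Pld4, a lysosomal nuclease gene, rose by 2.09 ± 0.20 and Cd68, a lysosomal membrane glycoprotein gene, by 1.09 ± 0.16. The Fc receptor gene Fcgr3 fell by 2.07 ± 0.15 and the lectin receptor gene Clec4a2 by 2.66 ± 0.31 (adjusted p = 5.13e-11, 8.51e-07, 8.46e-13 and 2.54e-09 in edgeR). In LSK 5 of 18 rose and 6 fell, with Plac8 at 0.91 ± 0.11 and the lysozyme gene Lyz2 at -0.997 ± 0.126 (adjusted p = 3.17e-07 and 2.66e-06). In both cell types the list thus moved in both directions.

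Of the partners of the 10 proteins, Cst3, a secreted inhibitor of cysteine proteases such as cathepsin S, rose by 2.25 ± 0.29 in Flt3 against WT GMP (adjusted p = 4.86e-08, edgeR) and by 2.93 ± 0.50 in LSK (adjusted p = 0.00212). Cd74, the invariant chain that Ctss trims, rose in LSK by 3.98 ± 0.76 (adjusted p = 0.00437) and in GMP by 5.76 ± 0.86 (adjusted p = 0.000622). In all, 2 of 5 tested partners rose in GMP and 3 of 4 in LSK, the third being Cd180 (1.25 ± 0.38, adjusted p = 0.0218), the surface partner of the Ly86 product. Csf1, the ligand gene of Csf1r, was not called between Flt3 and WT GMP (0.95 ± 0.45, adjusted p = 0.117), and fell by 3.26 ± 0.43 at 4 against 2 weeks in Flt3 GMP (adjusted p = 1.68e-07). Il34, Ccl2, Ccl7, Ccl12 and Thbs1 did not pass the filter on low counts in GMP.

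Of 5 tested transcription factor genes of monocytes, 3 rose in Flt3 against WT GMP and 2 in LSK. Irf8 rose in both, by 2.29 ± 0.24 and 3.05 ± 0.30 (adjusted p = 1.77e-08 and 1.89e-05, edgeR), and Zeb2 in GMP by 0.80 ± 0.22 (adjusted p = 0.00423). Spi1, listed as Sfpi1, was not called in GMP (0.08 ± 0.19, adjusted p = 0.819) or LSK (0.22 ± 0.17, adjusted p = 0.456). It was higher in GMP than in LSK in WT mice by 0.82 ± 0.26 (adjusted p = 0.0201) and in Flt3 mice by 0.67 ± 0.14 (adjusted p = 0.0006). Of the genes of patrolling (Ly6C-low) monocytes, 3 of 7 tested rose and 1 fell in Flt3 against WT GMP, with Treml4 at 3.80 ± 0.64 and the Fc receptor gene Fcgr4 at -2.49 ± 0.48 (adjusted p = 9.94e-06 and 8.61e-05).

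**Figure D3:**
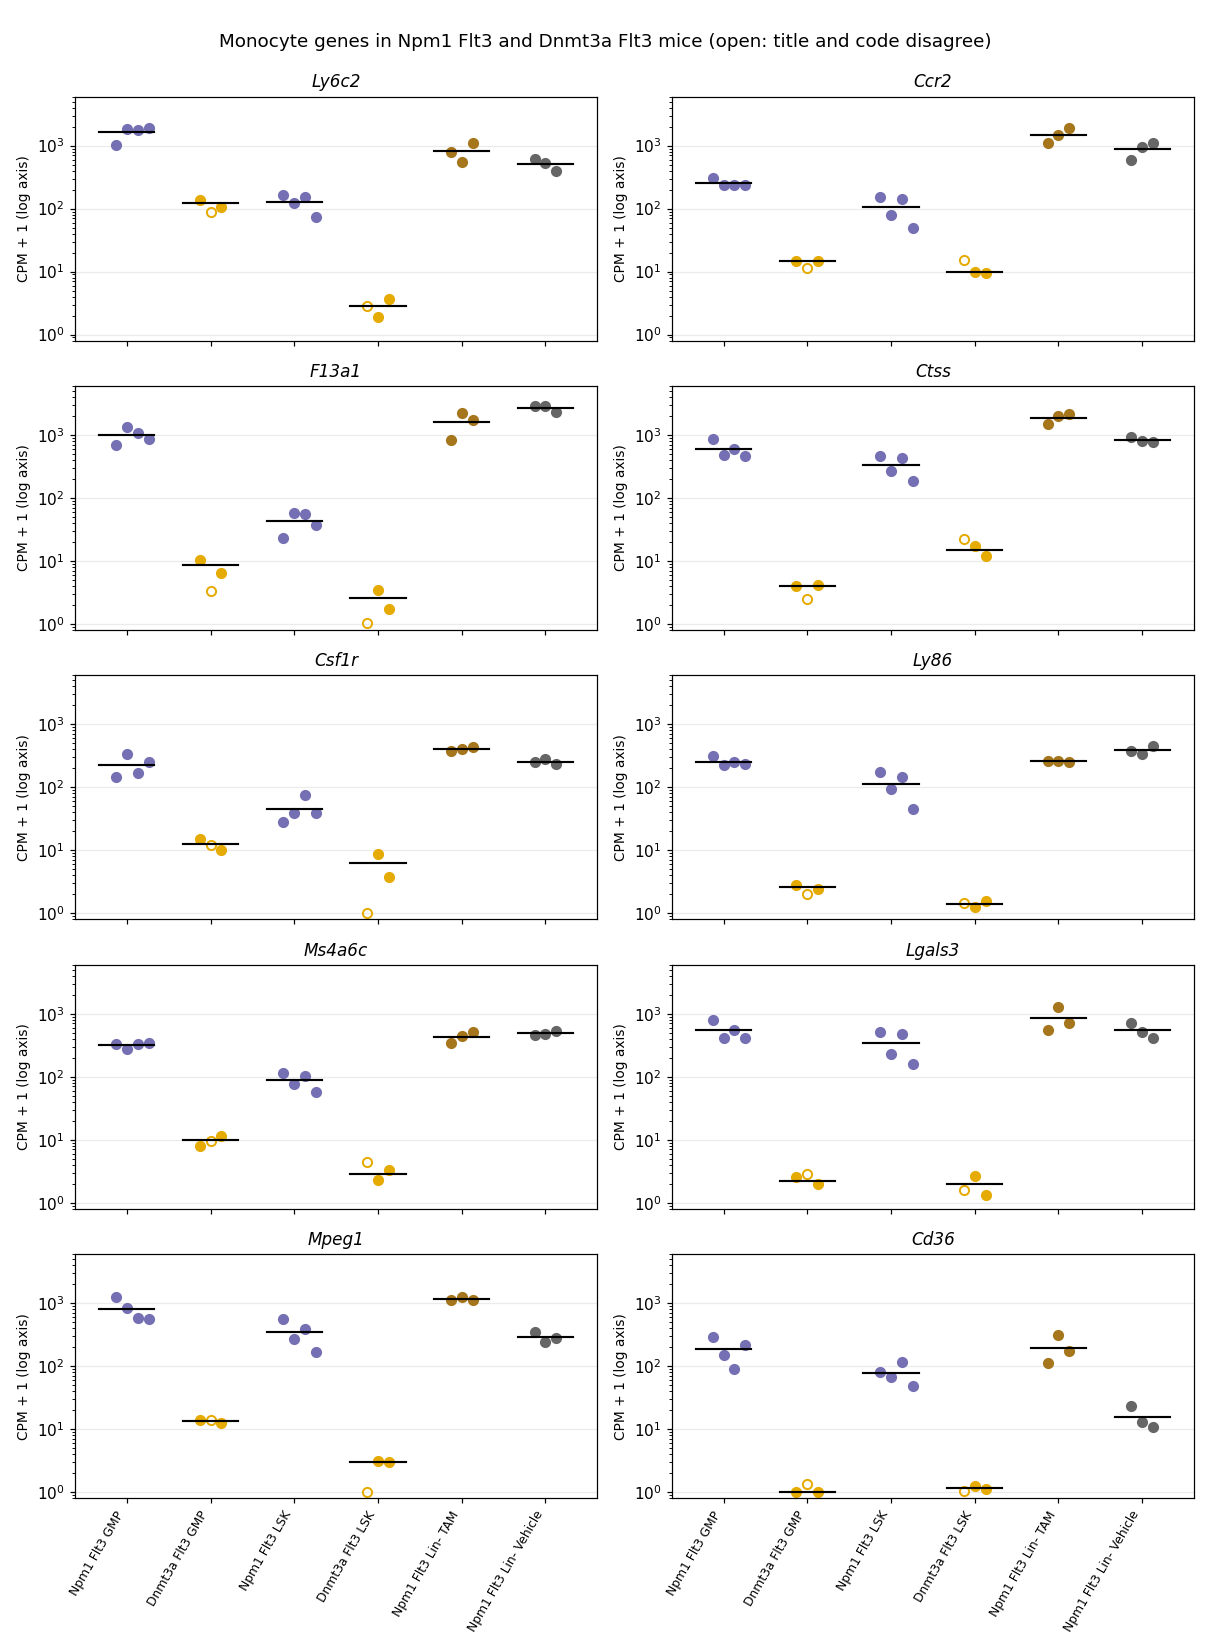
Levels of the monocyte genes in each library of Npm1 Flt3 and Dnmt3a Flt3 GMP and LSK and of Npm1 Flt3 lineage-negative progenitors after TAM or Vehicle. The vertical axis is CPM + 1 on a log scale, points are libraries, bars are means of the filled points, and open points are the 2 libraries whose title and code disagree. In each sort the Npm1 Flt3 libraries lie above the filled Dnmt3a Flt3 points for all 10 genes.

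Between the 2 combined genotypes the difference ran 1 way. In GMP all 10 genes were higher in Npm1 Flt3 than in Dnmt3a Flt3 mice, against 8.52% higher and 7.14% lower over all genes. In LSK all 10 were higher as well, against 9.23% and 5.19%. The 2 groups overlapped for none of the 10 genes in either sort. Overlap was not counted over all genes, so how unusual this is cannot be said. The median log2 fold change of the 10 was 6.44 in GMP and 5.88 in LSK, and -0.0034 and -0.02 over all genes. In each refit that left out 1 library all 10 were called in both sorts. The Dnmt3a Flt3 means rest on 2 libraries each.

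Each gene except Cd36 was counted in both Dnmt3a Flt3 GMP libraries. Among them were the receptor genes Ccr2 and Csf1r and the surface antigen gene Ly6c2, below their Npm1 Flt3 GMP levels. Ccr2 had 302, 235, 239.9 and 239.6 CPM in Npm1 Flt3 GMP and 13.6 and 13.5 CPM in Dnmt3a Flt3 GMP, a difference of 4.13 ± 0.42 (adjusted p = 3.19e-05, edgeR). Csf1r had 143, 335, 168 and 249 CPM in Npm1 Flt3 GMP, against 14.3 and 9.12 CPM in Dnmt3a Flt3 GMP (4.15 ± 0.59, adjusted p = 0.00041). Ly6c2 had 1007, 1815, 1787 and 1919.7 CPM in Npm1 Flt3 GMP and 136 and 103 CPM in Dnmt3a Flt3 GMP, the smallest difference of the 10 in GMP at 3.66 ± 0.44 (adjusted p = 9.92e-05). None of these 3 overlapped between the genotypes, which again was not counted over all genes.

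Cd36 had 286, 148, 89.4 and 218 CPM in Npm1 Flt3 GMP and 0 counts in both Dnmt3a Flt3 GMP libraries, at least 11404-fold higher against a floor of 3 counts over 187157039. Lgals3 had 803, 410.1, 555 and 409 CPM in Npm1 Flt3 GMP and 1.51 and 0.974 CPM in Dnmt3a Flt3 GMP (8.69 ± 0.81, adjusted p = 1.86e-05, edgeR). Ctss had 872, 472, 599.9 and 461 CPM in Npm1 Flt3 GMP, against 3.01 and 3.10 CPM in Dnmt3a Flt3 GMP (7.53 ± 0.52, adjusted p = 1.76e-06). These 3 had the lowest Dnmt3a Flt3 levels relative to Npm1 Flt3 among the 10 in GMP. Ly86 differed by 7.22 ± 0.58, F13a1 by 6.93 ± 0.63, Mpeg1 by 5.95 ± 0.53 and Ms4a6c by 5.08 ± 0.37 (adjusted p from 3.28e-06 to 1.58e-05).

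In LSK the differences ranged from 3.18 ± 0.56 for Csf1r to 8.84 ± 0.75 for Cd36 (adjusted p from 2.48e-06 to 0.00224, edgeR). Cd36 had 79.2, 65.5, 113 and 47.3 CPM in Npm1 Flt3 LSK, against 0.234 and 0.107 CPM in Dnmt3a Flt3 LSK. Ly86 had 173, 92.0, 147 and 44.1 CPM in Npm1 Flt3 LSK and 0.265 and 0.595 CPM in Dnmt3a Flt3 LSK (8.05 ± 0.62). Ly6c2 had 163.96, 119.8, 151 and 73.1 CPM in Npm1 Flt3 LSK and 0.903 and 2.69 CPM in Dnmt3a Flt3 LSK (6.16 ± 0.51). None of these 3 overlapped between the genotypes in LSK, and here too overlap was not counted over all genes.

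Wider lists moved the same way without moving in full. Of 30 other classical monocyte genes 15 were higher and none lower in Npm1 Flt3 than in Dnmt3a Flt3 GMP, and 18 and none in LSK. Over all genes 8.52% were higher and 7.14% lower in GMP, and 9.23% and 5.19% in LSK. Tgfbi, a matrix protein gene, was higher by 6.98 ± 0.62 in GMP, and Tyrobp, a signalling adaptor gene, by 3.98 ± 0.29 in LSK (adjusted p = 1.32e-05 and 4.15e-06, edgeR). Irf8 was higher by 3.06 ± 0.52 in GMP and 4.64 ± 0.57 in LSK (adjusted p = 0.00135 and 0.000255), while Spi1 was not called in GMP (-0.08 ± 0.54) or LSK (1.22 ± 0.58). Dendritic markers were higher for 8 of 8 in both sorts and summed to 9401 to 19281 CPM in Npm1 Flt3 GMP, against 63.8 to 73.7 CPM in Dnmt3a Flt3 GMP, with none of the 8 at 0. Late neutrophil markers were higher for 5 of 6 in GMP and 4 of 6 in LSK (medians of 6.44 and 6.13 on the log2 scale). They summed to 363 to 1443 CPM in Npm1 Flt3 GMP, against 11.5 to 13.6 CPM in Dnmt3a Flt3 GMP, where Camp was at 0. In LSK they summed to 213 to 574 CPM in Npm1 Flt3 and to 70.9 to 86.3 CPM in Dnmt3a Flt3. Basophil and mast cell markers went the other way in GMP, lower for 4 of 5, with sums of 81.4 to 175 CPM in Npm1 Flt3 and 1453 to 1718 CPM in Dnmt3a Flt3 and none at 0. Primary granule markers summed to 18476 to 49258 CPM in Npm1 Flt3 GMP and 59492 to 61601 CPM in Dnmt3a Flt3 GMP. Flt3 itself was higher in Npm1 Flt3 GMP by 1.85 ± 0.31 (adjusted p = 0.0012). Their part in the difference was not tested.

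Within Npm1 Flt3 mice 8 of the 10 genes were higher in GMP than in LSK and none lower, against 2.27% and 2.35% of all genes. F13a1 had 687, 1362, 1073 and 858 CPM in GMP and 22.4, 57.1, 55.1 and 36.6 CPM in LSK (4.69 ± 0.41, adjusted p = 1.48e-05, edgeR). Ly6c2 was higher by 3.88 ± 0.33 (adjusted p = 1e-05), Csf1r by 2.47 ± 0.41 (adjusted p = 0.00262), Ms4a6c by 2.07 ± 0.24 and Ccr2 by 1.49 ± 0.28. Mpeg1 (1.44), Cd36 (1.49) and Ly86 (1.39) were nearer the threshold, with adjusted p = 0.0177, 0.039 and 0.0248. Ctss at 1.05 ± 0.28 had adjusted p = 0.0504, and Lgals3 was at 0.87 ± 0.42 (adjusted p = 0.285). With the animal as a replicate block (3 pairs) all 10 were called, with Ctss at 1.29 (adjusted p = 0.00439) and Lgals3 at 1.21 (adjusted p = 0.00576). Without GMP replicate 2 the count was 5, since Ly86, Mpeg1 and Cd36 lost their calls, and it was also 5 with the 2 conflicting libraries put back, which ended the calls of Csf1r, Mpeg1 and Cd36 (adjusted p = 0.0747 to 0.228). Ly86 lost its call in 4 refits (without GMP replicate 1, 2 or 4 or LSK replicate 2), Cd36 in 6 (replicates 1, 2 and 4 of either sort) and Mpeg1 in 2 (replicate 2 of either sort). Ctss passed without LSK replicate 3 (adjusted p = 0.0209).

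Within Dnmt3a Flt3 mice, with 2 libraries each, 5 of the 10 were higher in GMP and 1 lower, against 1.29% and 0.579% of all genes. Ly6c2 had 136 and 103 CPM in GMP and 0.903 and 2.69 CPM in LSK, higher by 6.38 ± 0.53 (adjusted p = 2.41e-05, edgeR). Ms4a6c was higher by 2.58 ± 0.35 (adjusted p = 0.00137). These 2 calls held in each refit. F13a1 (2.57), Ly86 (2.22), Mpeg1 (2.92) and Ctss, which was lower in GMP by 1.85 ± 0.42 with 3.01 and 3.10 CPM against 16.5 and 11.2 CPM in LSK, each lost the call in refits. Ly86 did so in 9 (adjusted p up to 0.514), F13a1 and Ctss in 4 each and Mpeg1 in 2, and each of the 4 Dnmt3a Flt3 libraries ended at least 1 of these calls. Without LSK replicate 3 the count was 2. Cd36 had 0 counts in GMP and 0.234 and 0.107 CPM in LSK, at least 10.6-fold higher in LSK, and passed without Npm1 Flt3 GMP replicate 3 (adjusted p = 0.0373). With the animal as a replicate block (1 pair) Ctss and Ly86 were not called (adjusted p = 0.126 and 0.413). F13a1 was not called with the conflicting libraries put back (adjusted p = 0.0711).

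**Figure D4:**
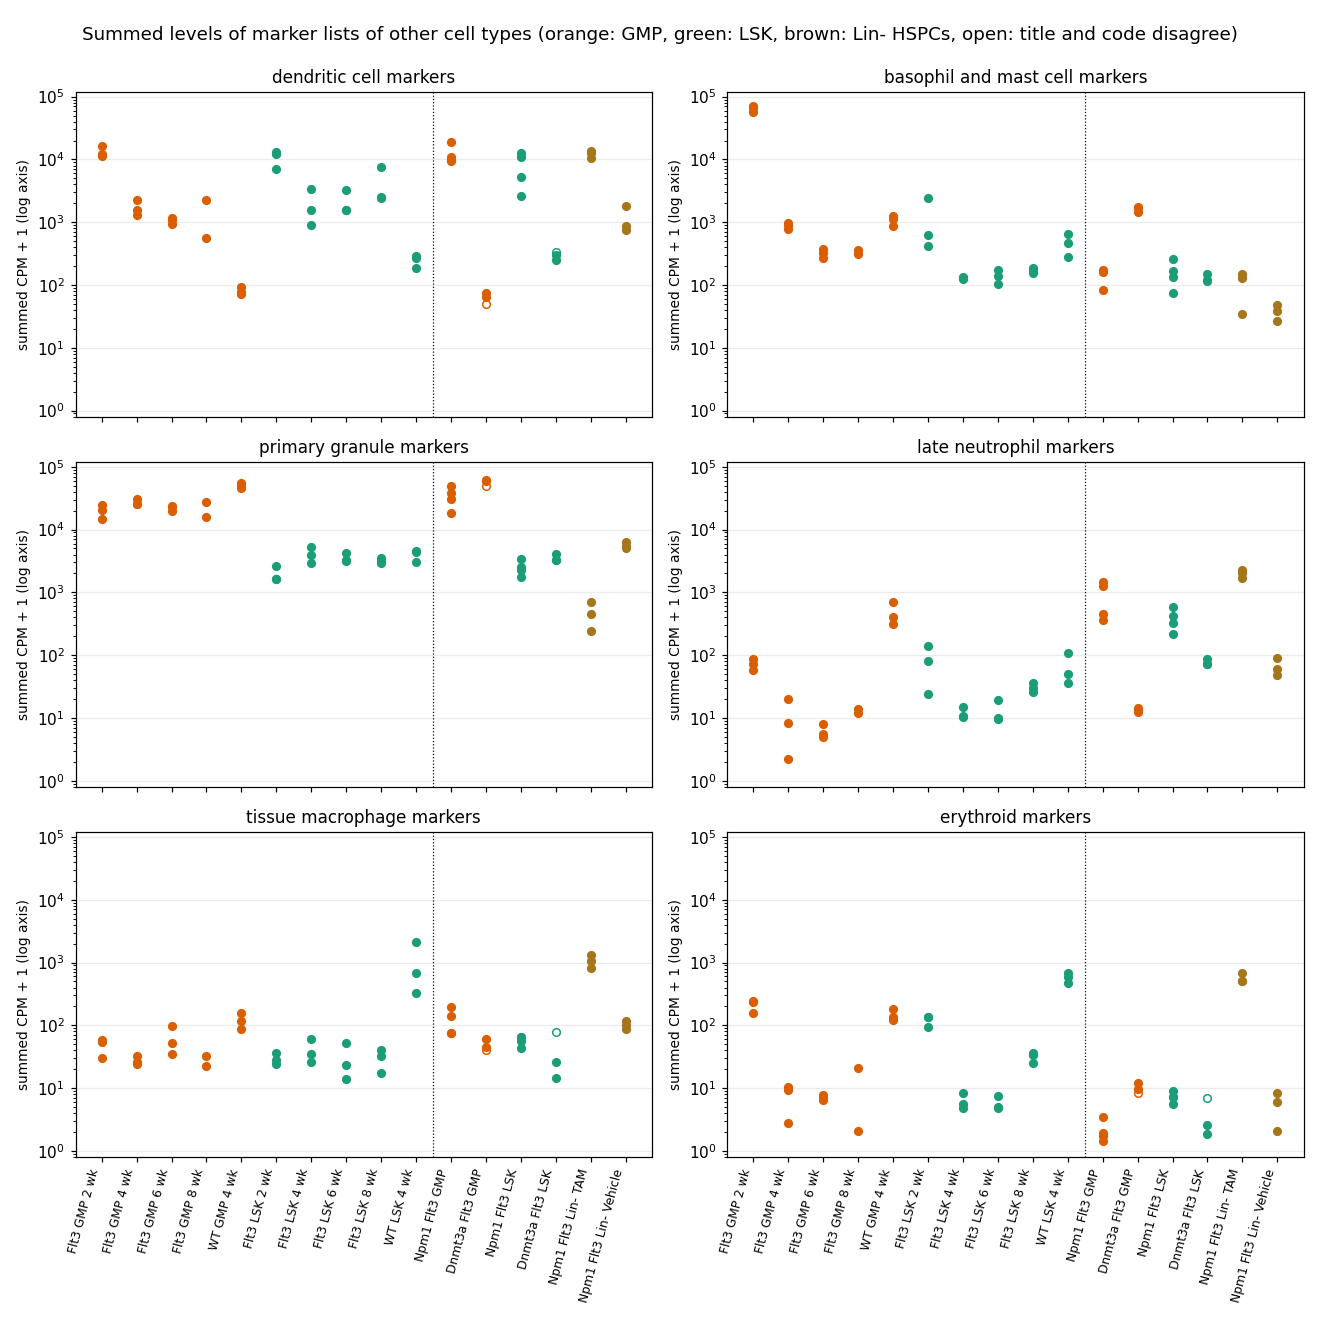
Summed CPM + 1, on a log scale, of 6 marker lists of other cell types in each library, with groups along the horizontal axis. Orange points are GMP, green points LSK and brown points lineage-negative progenitors, open points are the 2 conflicting libraries, and the dotted line parts the 2 tables. Basophil and mast cell markers reach 56749 to 70242 CPM in Flt3 GMP at 2 weeks, and dendritic markers are low in WT and Dnmt3a Flt3 cells.

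Tamoxifen, which per the labels removed the Flt3 oncogene, was compared with Vehicle in Npm1 Flt3 lineage-negative progenitors. The drug itself and the loss of the oncogene cannot be told apart here. Flt3 transcript averaged 129 ± 50.1 CPM in TAM libraries and 183 ± 24.7 CPM in Vehicle libraries (SD, n = 3 each). It fell by 1.68 ± 0.39 on the log2 scale with TMM (SE, adjusted p = 0.00126, edgeR). Of the 10 genes, 3 (F13a1, Ly86 and Ms4a6c) fell after TAM and 1 (Cd36) rose. These counts are near the shares over all genes, 21.3% lower and 10.1% higher, so the 10 do not stand out by them. The median log2 fold change over all genes was 0.56, and -0.53 over the 10. Values here depend on scaling, since the TMM factors were 1.67, 1.32 and 1.55 in the TAM libraries and 0.865, 0.476 and 0.706 in the Vehicle libraries. CPM of the library total and the fit can therefore point in different directions.

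Cd36 had 111, 306 and 170.3 CPM in TAM libraries, against 21.9, 12.1 and 9.67 CPM in Vehicle libraries, without overlap. It rose by 2.66 ± 0.43 (adjusted p = 2.19e-05, edgeR), and by 3.75 on library totals alone, an alternative chosen after seeing the data. F13a1 had 845, 2221 and 1736 CPM in TAM libraries and 2929, 2860.3 and 2321 CPM in Vehicle libraries. It fell by 1.94 ± 0.41 (adjusted p = 0.0005), or by 0.75 (adjusted p = 0.0494) on library totals alone. Ly86 had 261, 262 and 249.9 CPM in TAM libraries and 373, 334 and 454 CPM in Vehicle libraries, and fell by 1.78 ± 0.37 (adjusted p = 0.000302), or by 0.58 (adjusted p = 0.0194) on library totals alone. These 3 kept direction and call under both scalings.

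The other genes did not. Ms4a6c fell by 1.39 ± 0.37 (adjusted p = 0.00452, edgeR), and was at -0.17 (adjusted p = 0.385) on library totals alone. Mpeg1 had 1120.4, 1254 and 1134 CPM in TAM libraries and 341, 241 and 274 CPM in Vehicle libraries, which did not overlap. Its fitted change was 0.87 ± 0.35 (adjusted p = 0.0585), beside a median of 0.56 over all genes, and 2.04 (adjusted p = 3.36e-05) on library totals alone. It passed in 4 of 6 refits that left out 1 library (each TAM library or Vehicle replicate 2, adjusted p = 0.0169 to 0.0443). Lgals3 was not called at -0.48 (adjusted p = 0.317) and was lower without TAM replicate 2 (-0.99, adjusted p = 0.0264), but stood at 0.65 on library totals alone, where it was not called. Ly6c2 (-0.58), Ccr2 (-0.49), Ctss (-0.03) and Csf1r (-0.57) were not called with TMM, and had the opposite sign and a call on library totals alone (0.66, 0.77, 1.17 and 0.67, adjusted p = 0.0456, 0.035, 0.000845 and 0.00803), so no direction is given for these 4 or for Lgals3.

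The change in cell markers was broad. Dendritic markers summed to 10483 to 13590 CPM in TAM libraries and 759 to 1790 CPM in Vehicle libraries, tissue macrophage markers to 816 to 1342 and 85.6 to 114 CPM, and late neutrophil markers to 1688 to 2251 and 46.9 to 90.3 CPM. Erythroid markers summed to 502 to 689 CPM in TAM libraries and 1.09 to 7.28 CPM in Vehicle libraries, and primary granule markers to 237 to 711 and 5143 to 6236 CPM. None of these markers was at 0, and their part in the result was not tested. Of 30 other classical monocyte genes 10 rose and 6 fell, with Ms4a6d at 2.43 ± 0.38 and Plac8 at -2.68 ± 0.38 (adjusted p = 1.31e-05 and 3.54e-06, edgeR). Of 10 genes of patrolling monocytes 5 rose, such as Fcgr4 (2.61 ± 0.38, adjusted p = 4.63e-06), and 2 fell. Over all genes 10.1% were higher and 21.3% lower with TMM, so the falls in both lists are near that share. The counts of both lists rest on TMM and were not repeated on library totals alone. Among the partners Ccl2 and Ccl7, ligand genes of Ccr2, rose by 2.04 ± 0.57 and 2.86 ± 0.71 (adjusted p = 0.006 and 0.00214), and the Cd36 ligand gene Thbs1 by 3.23 ± 0.56 (adjusted p = 5.51e-05).

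Across the 10 groups of WT and Flt3 cells the genes fell into patterns, given as a description over group means of log2(CPM + 1). Ly6c2, F13a1 and Ms4a6c varied together (Pearson r = 0.976 for Ly6c2 with F13a1, 0.906 for Ly6c2 with Ms4a6c and 0.951 for F13a1 with Ms4a6c). Ctss, Lgals3, Mpeg1 and Cd36 varied together with r from 0.854 to 0.962. Between the 2 sets r lay between -0.346 and 0.190. Csf1r and Ly86 were nearest to Ms4a6c (0.860 and 0.876), and Ccr2 to Ly86 (0.810). The groups share cell type and, within a time, animals, so the points are not independent.

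Among 6928 other genes with a mean of at least 4 on that scale, the genes most like Cd36 were H2-Eb1, H2-Aa and H2-Ab1 (r = 0.995, 0.990 and 0.990), which encode MHC class II chains. Lgals3 was most like the lysosomal gene Psap (0.989) and Anxa6 (0.986), Mpeg1 most like Cst3 (0.961) and Ctss most like Plekho1 (0.974). Ly6c2 was most like Stom (0.980) and Slpi (0.978), and F13a1 most like Hexa (0.987), a lysosomal enzyme gene, and Stom (0.967). Ly86 had its highest r with Pyhin1 (0.981), Ms4a6c with Ctsz (0.967), Csf1r with Gria3 (0.967) and Ccr2 with Pdia5 (0.955). Each r covers 10 group means.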

How the data were processed

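The deposited files are 2 tables of raw read counts per gene for 50 libraries, made by the authors with STAR and featureCounts on mm10, per the submitters' processing notes; versions are not given in the sources used here. Per the labels, cells were flow-sorted and libraries made with 3' kits, but the kit of each library is not given in the sources used here. Counts were tested in edgeR 4.0.16 (R 4.3.3) with TMM scaling, filterByExpr, robust glmQLFit and Benjamini-Hochberg adjustment at 0.05 over all genes of a fit; the standard error (SE) is the log2 fold change over the square root of F. DESeq2 1.42.0 was an alternative. The edgeR fit of each set of libraries was also run on simulated counts. Levels are counts scaled to the library total (CPM). The members and lists were chosen with earlier results of these data known; all 10 members are named, and from other lists up to 4 genes with the smallest p in a comparison are named, besides Spi1, Csf1, Cd180 and Cd74, named for their role after their values were seen. Of 123 list genes 118 matched by symbol, 4 by synonym and 1 (Hbb-bt) not at all.

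Nothing in the labels says how replicates relate beyond their numbers and codes, so p-values measure the spread between libraries. No replicate pair of the 52 compared agreed within sampling noise (lowest chi-square per degree of freedom 2.26). GMP and LSK libraries whose sample codes carry 1 animal number come from the same animal, and this pairing was used as the replicate block; their residual correlation lay between -0.114 and 0.254 over 14 pairs, between 0.146 and 0.428 over 3 Npm1 Flt3 pairs and at -0.0856 for the Dnmt3a Flt3 pair. The tables were normalized separately and are not compared. Floors cover counting error only, while SE and SD include the spread between libraries. Alternatives were DESeq2, median-ratio size factors, other count filters, blocks, left-out libraries and, chosen after seeing the data, library totals alone for TAM. The sequence that the Ccr2 transcript shares with other genes is not reported here.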

Additional observations from a re-analysis of the deposited data

Results flagged for a closer look

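Ly6c2 had 1007 CPM in Npm1 Flt3 GMP replicate 1, far below the other three (1787 to 1919.7 CPM). Ccr2 had 302 CPM in the same library, far above the other three (235 to 239.9 CPM). These were 2 of the 20 groups of values examined, and chance reaches such a gap in about 1 in 20 groups. The Flt3 effect differed between GMP and LSK for Ly6c2 (-2.10 on the log2 scale), Ccr2 (-2.86) and Ctss (1.45), by the test of the difference itself in edgeR.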

How the results depend on the processing

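Of 160 results for single members 88 were called, and 61 of these kept direction and call in every alternative run, as 43 of those not called stayed so; 4 gained a call with the opposite sign, all in TAM against Vehicle on library totals alone (Ly6c2 0.66, Ccr2 0.77, Ctss 1.17, Csf1r 0.67), where 8 members were called in place of 4. Of the 72 results not called, 30 (these 4 among them) had the opposite sign in at least 1 alternative, as none of the 88 called did. That scaling took the median of all genes to 1.64, against 0.56 with TMM, 0.30 with median-ratio size factors and 0.03 with a 5 CPM filter. Without the 2-week libraries 2 members rose in Flt3 against WT LSK, and 4 did at 4 weeks with the replicate block by title number. For the difference of Flt3 effects 5 were called with the replicate block by animal, 5 with DESeq2 without the near-empty library and 1 in the 4-week groups alone. With the 2 conflicting libraries put back, 5 were called in Npm1 Flt3 GMP against LSK. The causes were not tested. Title numbers are shared across genotypes and treatments without a stated pairing, with residual correlations from -0.297 to 0.258 over 56 pairs and from -0.103 to 0.0989 for TAM and Vehicle.

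When 1 library was left out, the count of members called ranged from 5 to 8 for WT GMP against LSK, 6 to 8 for Flt3 against WT GMP and 3 to 6 for LSK, 6 to 7 and 1 to 4 at 4 weeks, 6 to 7 (GMP) and 2 to 8 (LSK) for 4 against 2 weeks, 0 to 0 for later times, 5 to 7 for Flt3 GMP against LSK, 2 to 4 for the difference of effects, 5 to 9 for Npm1 Flt3 and 2 to 6 for Dnmt3a Flt3 GMP against LSK, 10 to 10 for Npm1 Flt3 against Dnmt3a Flt3, and 4 to 6 for TAM.

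Counts over all genes moved by over 1.5 times with DESeq2 for Flt3 against WT GMP (912, against 2393), at 4 weeks (366, against 1364), 4 against 2 weeks in GMP (567, against 1507), later times in GMP (5, and 32 with no count filter, against 12), the difference of effects (649, and 648 in the 4-week groups, against 1278), Npm1 Flt3 GMP against LSK (2188, against 980), Dnmt3a Flt3 GMP against LSK (1021, with 796 with the conflicting libraries and 130 with the replicate block by animal, against 397), and Npm1 Flt3 against Dnmt3a Flt3 in LSK (5046, against 3060) and GMP (5105, and 2127 with the block by title number, against 3324). In LSK at later times no filter gave 8, against 1. With median-ratio size factors the median of all genes was -0.35 in WT GMP against LSK (-0.12 with TMM), 0.17 in Flt3 against WT GMP (0.04), 0.27 for the difference of effects (0.10), -0.24 in Dnmt3a Flt3 GMP against LSK (-0.11) and -0.13 in Npm1 Flt3 against Dnmt3a Flt3 LSK (-0.02). Depth limits most the first table, where 1 count is a large step for Cd36.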
